A study of Homo sapiens with 6 samples.

Results

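Convergent genes are neighbours on opposite DNA strands that are transcribed toward each other, so that their 3′ ends face one another. The pairs described here are those whose last exons share at least 1 base in an exon annotation made for U-87 MG cells. Pairs in which one gene's span held the other's were left out. There were 877 such pairs, made of 1748 of the 13721 gene names listed (12.7%). They made up 870 of the 3505 tail-to-tail neighbours (24.8%), and the other 7 pairs were not direct neighbours. The pairs were chosen by the measured overlap itself, so its length, and the length of the exons that carry it, are given as a description.

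U-87 MG is an established human glioma line. Cells of this single line received either the vehicle DMSO (10 ul in 10 ml of medium, 3 libraries) or the PRMT5 inhibitor EPZ015666 at 10 uM (3 libraries), each over 72 h, and poly(A)-selected RNA was sequenced. PRMT5 is an arginine methyltransferase that modifies splicing proteins, and the series asks how its inhibition bears on introns that remain in otherwise mature RNA. The annotation gives the exons of 31659 isoforms in hg19 coordinates for both groups together and has 0 columns of values per library. No level, depth or replicate error can therefore be given, EPZ015666 could not be compared with DMSO for any pair, and the identity of the cells could not be checked against marker genes. The sources used here do not give whether reads over an overlap were assigned by strand.

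The 3′ end of an mRNA is made by cleavage of the growing transcript and addition of a poly(A) tail. In most human genes the cleavage site lies a short way downstream of a hexamer, AATAAA or the variant ATTAAA, that the cleavage machinery recognises. Where the last exons of convergent genes overlap, the same DNA encodes the end of both mRNAs, and the transcripts are complementary to each other over the shared stretch.

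Windows of 30 bases before the listed ends are shown for pairs in which both genes, or one of them, ended where a reference transcript ends. A listed end within 1 base of a reference end was read at that reference end. They were read from GENCODE v29 transcripts (GRCh38), 5′ to 3′ on each gene's own strand, and capitals mark the hexamer. SLC48A1, a heme transporter on the plus strand, and HDAC7, a histone deacetylase on the minus strand, show an overlap in its simplest form. Their windows at the farthest end of each gene, read at the reference ends, cover the same bases, chr12:47782722-47782751. They are reverse complements over all 30 bases. HDAC7 was listed 1 base short of that end, with a last exon of 1164 bases against 1165, so the listed overlap is 29 bases. Each strand carries its own AATAAA:
SLC48A1, farther end: ttttaaagcaAATAAAacatttattgttca
HDAC7, farther end: tgaacAATAAAtgttttatttgctttaaaa
The annotation also lists a shorter form of each gene that stops where the partner's farther end lies. At those inner ends, chr12:47782694-47782723 for SLC48A1 and chr12:47782751-47782780 for HDAC7, the window held no hexamer:
SLC48A1, nearer end: cacttctggggggccctttcagaggcactt
HDAC7, nearer end: tgtaaaaaggaagaaaatggaaaaaaatct

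EXOSC9 encodes a subunit of the RNA exosome and CCNA2 encodes cyclin A2. Both genes end at 2 shared bases, and at each the gene that ends there in the reference had the hexamer. The EXOSC9 window lies at chr4:121816992-121817021 on the plus strand. The CCNA2 windows lie on the minus strand, at chr4:121816445-121816474 for the reference end and at chr4:121817021-121817050 for the end it was given at the EXOSC9 end:
EXOSC9, reference end: gtgctttaaaatAATAAAccttctggagca
CCNA2, reference end: atttgaAATAAAccagaaatttgttacctt
CCNA2, end listed at the EXOSC9 end: agcttatatgcaaattaacagacgagaaat

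Not every pair had this arrangement. CARM1 is an arginine methyltransferase of the same family as PRMT5, and YIPF2 is a Golgi membrane protein. Here YIPF2 ended at a reference end without the hexamer (chr19:10922768-10922797, minus), while CARM1, listed as ending inside its reference last exon, had one (chr19:10922740-10922769, plus). That CARM1 end was close to a reference end: its last exon was 1155 bases, against 1163 in the nearest reference form and 1456 in the longest. At the shared base of TSPAN31, a tetraspanin, and CDK4, the cyclin D-dependent kinase, neither window held AATAAA or ATTAAA (chr12:57747699-57747728 for TSPAN31 and chr12:57747727-57747756 for CDK4):
CARM1, inner end: agaaagaaaaAATAAAtgaggaaacgtgtt
YIPF2, reference end: agaaggagaagaaaactgcctgtgctgcaa
TSPAN31, inner end: agaaagtttagcgaatataaaagtaaaagc
CDK4, reference end: aaaaaaaaagaatatagatttttaaatggc
A match to the hexamer describes these letters only. Whether transcripts in the cells ended at the listed bases was not tested.

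Most of the overlaps were as short as the rule allows. Exactly 1 base was shared in 494 of the 877 pairs (56.3%, 95% Wilson interval 53.0 to 59.6, counting error only). A further 66 pairs shared 2 to 10 bases, 88 shared 11 to 100, 152 shared over 100 and up to 1000, and 77 shared over 1000. Among the 383 pairs above 1 base the median was 158 bases, with quartiles of 25.5 and 716.5. Just inside the rule stood pairs of 1 base such as AAMDC with INTS4, ABCC3 with ANKRD40, ABCE1 with OTUD4, AC005484.5 with ALDH6A1 and AC007390.5 with CEBPZ. ABCE1, a ribosome recycling factor, ended at position 146050331 of chromosome 4 (hg19), and OTUD4, a deubiquitinase, ended at that same base from the other side. Just outside it stood NRGN with VSIG2 on chromosome 11, whose ends at 124617102 and 124617103 adjoined with 0 bases between them. The next were TUBB with FLOT1 at a gap of 77 bases, BGLAP with PAQR6 and PPOX with B4GALT3 at 91 each, and COG1 with FAM104A at 97.

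The 1-base contact was a feature of facing tails. Among tail-to-tail neighbours the outer edges of the spans shared exactly 1 base in 467 of 3505. The same contact occurred in 0 of 3512 head-to-head neighbours, 0 of 3290 tandem neighbours on the plus strand and 0 of 3135 on the minus strand. Short gaps were frequent only between facing heads. A gap of 0 to 100 bases separated 5 tail-to-tail neighbours, 265 head-to-head neighbours, and 6 and 5 tandem neighbours. Tail-to-tail spans overlapped by exactly 2 bases in 8 cases and by 3 to 100 in 129.

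**Figure D1:**
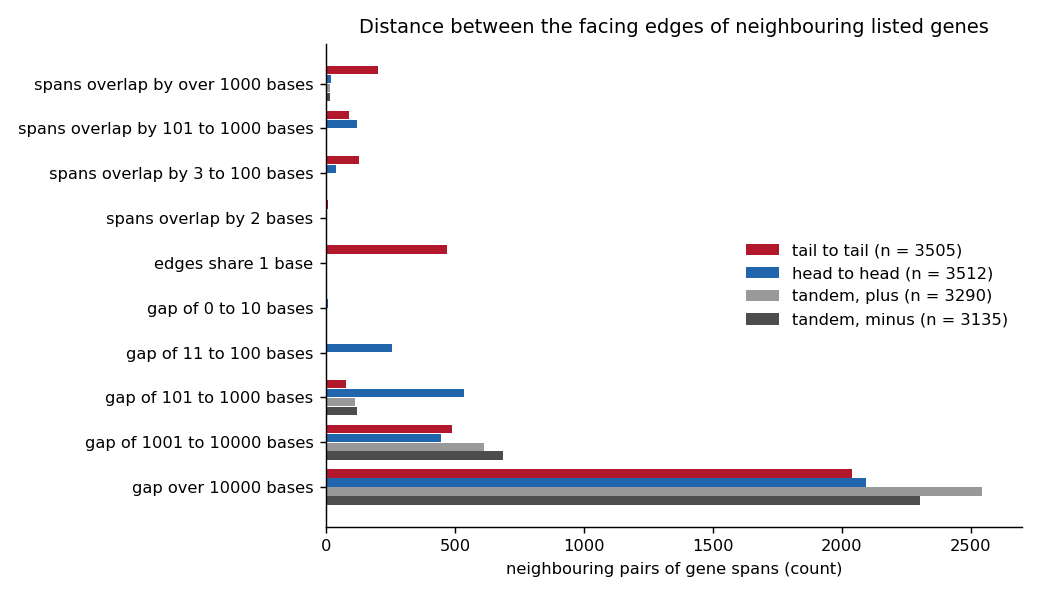
Count of neighbouring gene spans (horizontal axis) in each class of distance between their facing edges, for the 4 arrangements of strands. Only tail-to-tail neighbours have a bar at a shared base (467), and head-to-head neighbours hold most of the gaps of 11 to 100 bases (256).

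Longer overlaps also tended to begin or stop at a base where both genes were listed as ending. By definition all 494 pairs of 1 base have such a shared end base. Of the 383 longer pairs, 322 had one too (84.1%, 80.1 to 87.4), and 227 had 2 or more, as SLC48A1 and HDAC7 do. Over all pairs the count was 816 of 877 (93.0%). There were 587 pairs with 1 shared end base, 178 with 2, 35 with 3, 13 with 4 and 3 with 5. IL16, a cytokine, and STARD5, a lipid transfer protein, are one of the 3 pairs with 5, at positions 81598889, 81601395, 81601439, 81605008 and 81605104 of chromosome 15. The 61 pairs without a shared end base included THRA with NR1D1 and CD3EAP with ERCC1, which are described below.

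The shared bases took up different parts of the listed ends on the 2 strands. Plus-strand members had 1441 end bases in all, and 1115 of them (77.4%, 75.1 to 79.5) were shared with the partner. Minus-strand members had 2404 end bases, of which the same 1115 made 46.4% (44.4 to 48.4). More than 1 end base was listed for 84.3% of minus members, against 32.5% of other minus-strand genes. For plus members the share was 42.1%, against 22.6% of other plus-strand genes. Isoforms averaged 4.17 per minus member and 2.67 per plus member. Because a shared base is an end of both genes, pairs gain end bases by the way they were chosen, and no test was made of these differences.

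GENCODE v29, a reference annotation on GRCh38, showed which gene of a pair ended at its usual place. Ends were compared by the length of the last exon from the same splice acceptor, so that no position was carried between builds. An end counts here as a reference end when that length was within 1 base, as inside when it was shorter than the longest reference exon, and as beyond when it was longer. Both ends could be placed at 740 of the 1115 shared bases. At 653 of these (88.2%, 85.7 to 90.4) exactly one of the 2 genes stood at a reference end. In 431 (58.2%, 54.7 to 61.7) the plus gene stood at a reference end and the minus gene ran beyond its longest one. The mirror image, with the minus gene at a reference end and the plus gene beyond, occurred at 13 (1.76%, 1.03 to 2.98). At 119 the minus gene stood at a reference end and the plus gene stopped inside its exon, and at 90 the roles were exchanged. Both genes stood at reference ends at 9 bases, and both ran beyond at 15.

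The added length on the minus strand was large. In the 431 cases the minus gene's last exon exceeded its longest reference form by a median of 2082 bases (quartiles 611.5 and 4260.5, range 2 to 9737). In the 13 plus-strand cases the median was 91 bases and the highest value 1607. The sources used here do not say how the submitters set the ends of exons.

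Taken gene by gene, the farthest listed end separated the strands as well. It lay beyond the longest reference end in 520 of 716 placed minus members (72.6%, 69.2 to 75.8), with a median excess of 2278 bases. The background was 17.3% of other minus-strand genes (650 of 3751) and 17.9% of all placed genes. It lay beyond in 33 of 661 plus members (4.99%, 3.58 to 6.93), where the background was 9.11% of other plus-strand genes (292 of 3205). The minus share is thus above its background and the plus share below its own. Since a longer last exon makes an overlap more likely, the rule itself favours members with long ends, and this applies to either strand. A small offset was seen in all minus-strand genes: of the 2755 other minus genes at a reference end, 2235 were listed 1 base shorter than the reference, whereas 2109 of 2315 such plus genes had its exact length. A 1-base overlap is of the same size as this offset. A minus last exon listed 1 base short at its 3′ end shortens an overlap that starts there. How the offset bears on the 1-base overlaps was not tested.

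**Figure D2:**
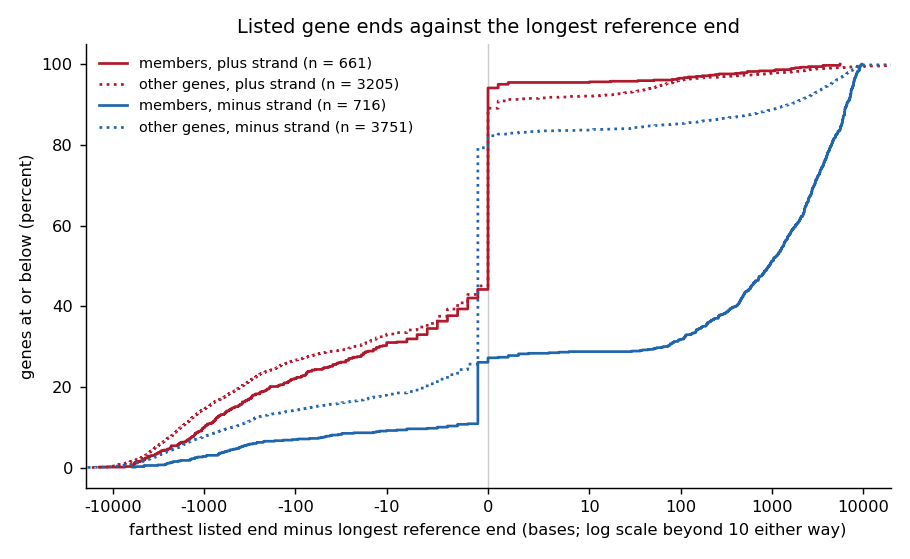
Cumulative percent of genes (vertical axis) by the length of the farthest listed last exon minus the longest reference form from the same acceptor, in bases (horizontal axis, logarithmic beyond 10 bases either way). Minus-strand members (solid blue) lie more than 1 base beyond the reference in 72.6% of genes, and the other 3 sets in 4.99 to 17.3%.

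Both genes could be found in the reference for 829 pairs. Of these, 814 joined protein-coding genes and 15 joined one to a gene of another type, where the background was 97.9% of all matched names. The last exons of 353 of the 829 (42.6%, 39.3 to 46.0) overlapped in the reference too, where the background over all matched tail-to-tail neighbours was 16.9% (549 of 3241). All 353 are among those 549, so 64.3% of these reference overlaps were overlaps in the annotation too. Reference overlaps between genes that are not matched tail-to-tail neighbours here were not counted. The overlap length was the same in both for 14 pairs, and within 1 base, the size of the offset on the minus strand, for 43. Pairs of 1 base mostly had no reference overlap: 336 of 473 (71.0%, 66.8 to 74.9) were apart there, with a median gap of 1500 bases and quartiles of 437.25 and 3711. Of the 356 longer pairs, 140 were apart, with a median gap of 1711.5 bases. The widest reference distance was 40567 bases, between the last exons of IFT43 and TGFB3. Distances were taken without regard to order, so these 2 exons need not face each other in the reference. TTLL5, listed as ending at the same base as IFT43, lay 3020 bases from TGFB3 there.

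Members were rare where the reference gap was wide. Where the reference gap was 1 to 1000 bases, 53.6% of 358 tail-to-tail neighbours were among the overlapping pairs. The share was 46.0% above that and up to 2500 bases, 35.8% up to 5000, 41.1% up to 7500 and 19.2% up to 10000. Above 10000 and up to 20000 bases it was 1 of 279 (0.358%). In all, 470 of 1095 neighbours with a gap of up to 10000 bases were members (42.9%), and 2 of 1597 with a wider one. Among the 716 minus members whose farthest end could be placed, the longest extension, 9737 bases, also lay under 10000. Among the placed other genes the longest extensions were 64365 bases on the minus strand and 154416 on the plus strand. Ends that could not be placed are not covered by these values. The longest last exon listed for any of the 873 minus members had 57381 bases.

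**Figure D3:**
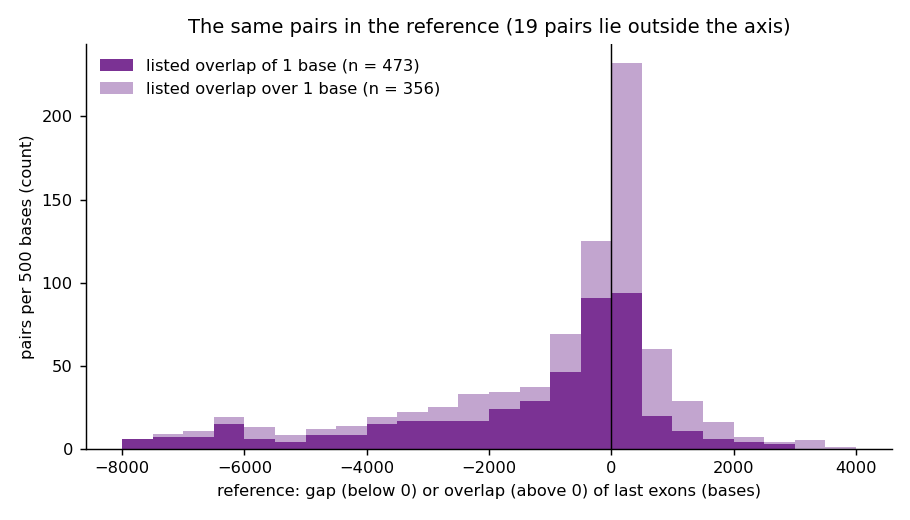
Number of pairs (vertical axis, bins of 500 bases) by the overlap (above 0) or gap (below 0) of the same genes' last exons in the reference. Pairs listed with 1 shared base (dark) lie mostly below 0, at 336 of 473, and 19 pairs fall outside the axis.

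The hexamer separated reference ends from the ends that stopped inside an exon. At shared bases it was present in the window of 585 of 828 ends that stood at a reference end (70.7%, 67.5 to 73.7). That is close to the 72.0% of 8040 such ends of other genes. At shared-base ends that lay inside a reference exon it was present in 75 of 348 (21.6%, 17.6 to 26.2), whereas inside ends of other genes had it in 37.7% of 1429 (35.2 to 40.3). Over all reference transcripts of protein-coding genes, many of which are incomplete at their ends, the background was 29.3%. The same search on the opposite strand, as TTTATT or TTTAAT, found it in 10.3% of the reference ends at shared bases and 2.87% of the inside ends. At 209 shared bases one window came from a reference end and the other from an inside end. The hexamer was present only at the reference end in 128 of them, only at the inside end in 6, at both in 13 and at neither in 62. Ends beyond the reference exon had no window, because no hg19 genome was used here.

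**Figure D4:**
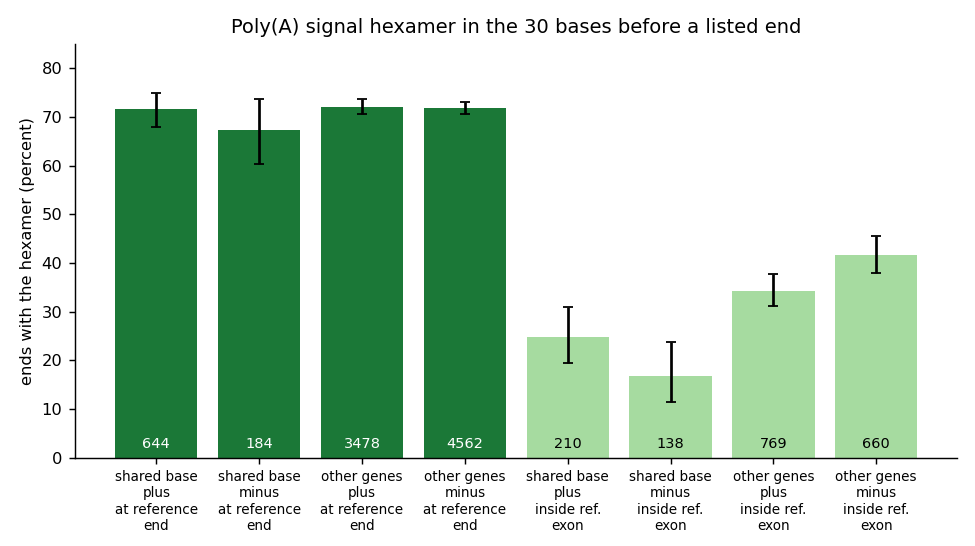
Percent of listed ends (vertical axis) whose 30-base window holds the poly(A) signal hexamer, by strand and by place in the reference exon; error bars are 95% Wilson intervals and the number of ends stands in each bar. Shared ends at a reference end sit at 67.4% or 71.6%, and shared ends inside an exon at 16.7% or 24.8%.

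Pairs known for their overlap from earlier work showed each of these arrangements. THRA, a thyroid hormone receptor, and NR1D1, the clock repressor REV-ERBα, overlapped by 263 bases on chromosome 17, the same length as in the reference, with no shared end base. CD3EAP, an RNA polymerase I subunit, and ERCC1, part of the nucleotide excision repair nuclease, overlapped by 1593 bases on chromosome 19, again as in the reference. TBP, the TATA-binding protein, and PDCD2, a chaperone of a ribosomal protein, lie on chromosome 6 with a reference gap of 2424 bases. TBP was listed with ends at 170881941 and 170881958 (hg19). PDCD2 was listed with ends at both of those bases and at others, and its longest last exon was 4865 bases against 2423 in the reference. The added 2442 bases brought it to an 18-base overlap with TBP. TBP's end at 170881941 was preceded by the hexamer, and the one at 170881958 by no hexamer in its own 30 bases, as the windows chr6:170572824-170572853 and chr6:170572841-170572870 show:
TBP, first end: tactctgtacAATAAAtgcagtttataaaa
TBP, second end: gcagtttataaaagtgttagattgttgtta

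Other known pairs overlapped less than in the reference. TSPAN31 with CDK4 overlapped by 509 bases where the reference gives 891. TYMS, thymidylate synthase, with ENOSF1, an enolase family enzyme, overlapped by 72 against 719. FGF2, a fibroblast growth factor, with NUDT6, whose transcript is known as its natural antisense, shared only base 123813800 of chromosome 4 (hg19), against 651 bases. NUDT6 stood there at a reference end. SURF2 with SURF4 were listed 1015 bases apart, against 279 in the reference.

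**Figure D5:**
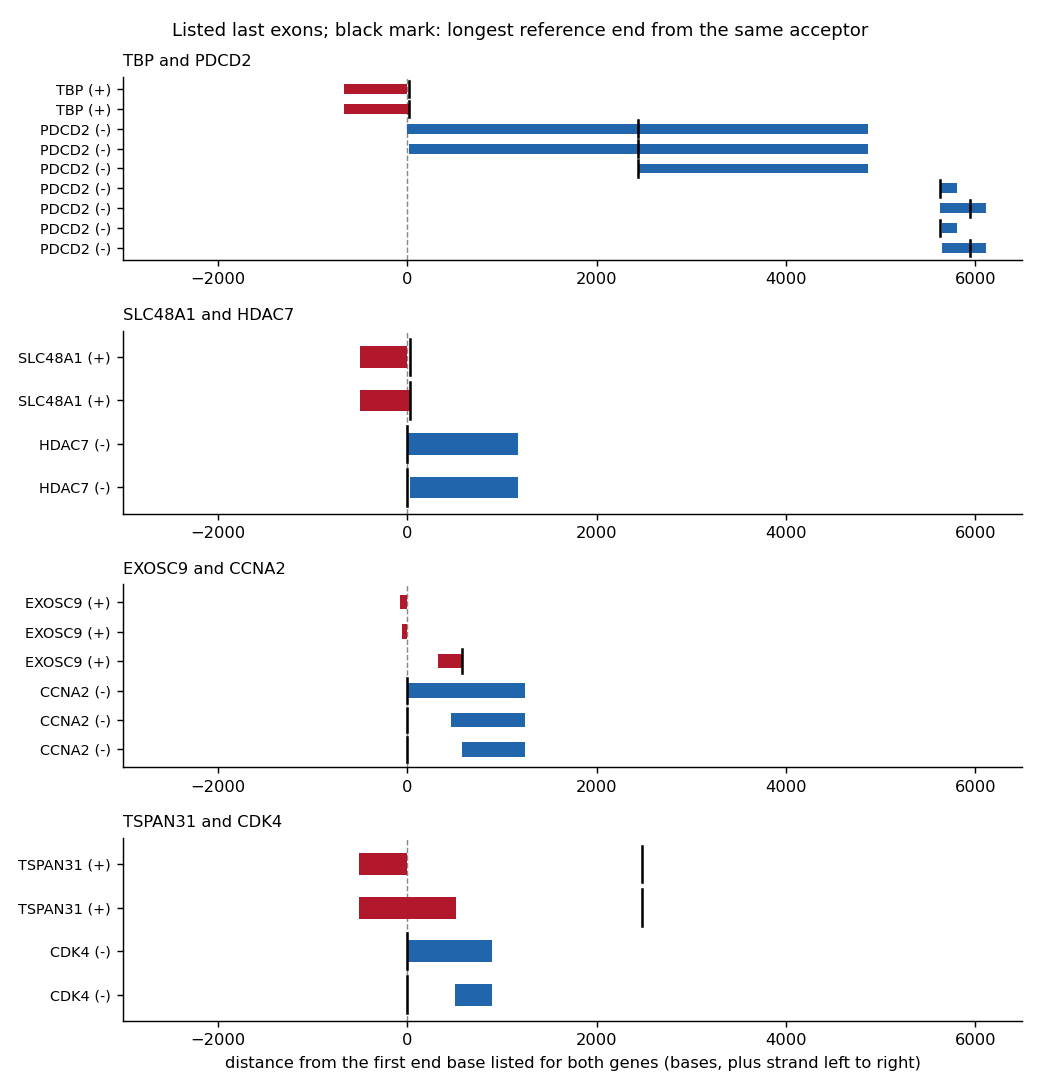
Listed last exons of 4 pairs (red, plus strand; blue, minus strand) by distance in bases from the first shared end base, with a black mark where the longest reference exon from the same acceptor ends; exons farther than the plotted range are not drawn. PDCD2 runs 2442 bases past its mark to meet TBP, while CCNA2 and CDK4 have further ends short of theirs.

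Last exons of members were long. Taking the longest of each gene, the median was 1503 bases over the 1748 members, 746 over the other 11973 genes and 834 over all. The difference was seen on both strands, with 849 bases against 499 on the plus strand and 2700 against 1104 on the minus strand. In 142 pairs the overlap covered the whole plus last exon, and in 38 the whole minus last exon. Members also had more introns than other genes, at a median of 9 against 7. By the rule, the farthest end of each gene lies within the partner's span, and places in a last exon are favoured. The farthest plus end lay in a last exon in 827 pairs, in an intron in 45 and in an upstream exon in 5. The corresponding counts for the farthest minus end were 785, 86 and 6.

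Alternative last exons, meaning final exons that begin at different splice acceptors, were listed somewhat more often for members. At least 2 were listed for 477 of 1729 members with introns (27.6%, 25.5 to 29.7), where the background was 22.5%. A gene with more final exons has more chances to overlap a neighbour, so the rule itself favours such genes. Isoforms also averaged 3.42 per member, against 2.15 per other gene. No test was made of this difference. The plus and minus members did not stand apart, at 27.8% and 27.4%, with overlapping intervals. The pairs with most final exons together were DDHD2 with WHSC1L1 at 9, and DHX8 with ETV4, FARP1 with STK24, PHF17 with SCLT1 and ZNF276 with FANCA at 8 each. DHX8 is a spliceosomal helicase and ETV4 an ETS transcription factor; they shared 3 end bases. FANCA is a core protein of Fanconi anaemia repair, and its 5 final exons faced 3 of ZNF276. FARP1, a guanine nucleotide exchange factor, also had the longest last exon of any member, at 132391 bases. CENPP, a centromere protein, had 86270 and WDR25 had 74603. Each of the 3 overlapped its partner (STK24, IPPK and BEGAIN) by 1 base only. At that base their last exons placed in the reference had 1534, 1539 and 471 bases. The longest reference forms from those acceptors had 6941, 7515 and 484. In the reference, FARP1 overlaps STK24 by 4974 bases and CENPP overlaps IPPK by 2874, while WDR25 and BEGAIN are 6843 apart. Whether the far longer listed exons were transcribed whole was not tested.

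The 10 longest overlaps ran from 3792 to 8055 bases. RP1-197B17.3, a plus-strand name, and RAPGEF3, a cAMP-activated exchange factor for Rap, overlapped by 8055 on chromosome 12, from base 48122986 to base 48131040. Both positions were listed as ends of both genes. SEPT11, a septin, and CCNI, cyclin I, overlapped by 7417 bases although they are 6773 apart in the reference. ADAM22 and SRI, the calcium-binding protein sorcin, overlapped by 6133. ADAM22 had its reference last exon of 6419 bases, and SRI had one of 9748 against 1387. With ADAM22 at its reference end, SRI's excess of 8361 follows as the reference gap of 2228 plus the overlap. RPL27A, a ribosomal protein, and ST5 overlapped by 4027 bases, with ST5's last exon listed at 8285 bases against 780. ITGA2, the integrin alpha 2 subunit, and MOCS2, a subunit of molybdopterin synthase, overlapped by 4261 bases, the whole ITGA2 last exon. RBMS2 with BAZ2A overlapped by 4971, INPP4A with COA5 by 4922, MRPL19 with GCFC2 by 4349, IL16 with STARD5 by 4159 and MED12L with IGSF10 by 3792. Of these 10, RBMS2 with BAZ2A, MRPL19 with GCFC2, IL16 with STARD5 and MED12L with IGSF10 also overlap in the reference, by 601, 86, 4351 and 3579 bases.

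There were 6 names in 2 pairs each, and these differ from the rest in having more than one facing gene. TGFB3, a transforming growth factor on the minus strand, ended at base 76421422 of chromosome 14, where both TTLL5 and IFT43 were also listed as ending. SRA1 met both EIF4EBP3 and the read-through name ANKHD1-EIF4EBP3 at base 139929163 of chromosome 5, the end that those names share. RNFT1 met RPS6KB1, the S6 kinase, and RP11-178C3.1 at base 58027781 of chromosome 17. LRRC14 met C8orf82 and LRRC24, with overlaps of 23 and 45 bases. AC074212.3 met DMPK, the myotonic dystrophy kinase, over 923 bases, the whole DMPK last exon, and AC011530.4 at 1 base. RP11-345J4.3 met SULT1A4 over 514 bases and SLX1B at 1 base. SULT1A4 and SLX1B have near-identical copies nearby, so reads there may have been placed on either copy.

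Lists of genes for processes tied to PRMT5 and to growing tumour cells were counted against the 12.7% of all names. Splicing factors were in pairs in 9 of 72 listed cases, tRNA synthetases in 4 of 35 and oxidative phosphorylation genes in 8 of 66, which is 12.5, 11.4 and 12.1%. Chromatin modifiers came to 14 of 89 (15.7%) and mitosis and cell cycle genes to 13 of 75 (17.3%). DNA repair genes came to 19 of 75 (25.3%, 16.9 to 36.2). The interval of the DNA repair list was the only one of the 6 to lie above 12.7%, and it treats genes as independent. No test was made. The median overlap was 1 base over all 877 pairs, and by list it was 1 for the chromatin and oxidative phosphorylation genes, 3 for splicing, 4 for DNA repair, 6 for the cell cycle and 267.5 for the 4 tRNA synthetases.

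Among the DNA repair genes, ERCC1 had the longest, with CD3EAP. FANCL, the ubiquitin ligase of the Fanconi pathway, overlapped VRK2 by 452 bases, the length the reference gives. LIG3, a DNA ligase, overlapped RAD51L3-RFFL by 260 bases where the reference has a gap of 1605. RAD52, which promotes annealing of DNA strands, overlapped WNK1 by 153 bases where the reference has a gap of 624. RAD52's last exon was 777 bases longer than its reference form, which, with WNK1 at its reference end, follows as the gap plus the overlap.

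The cell cycle and chromatin lists held both kinds of pair. CCND1, cyclin D1, overlapped ORAOV1 by 227 bases (244 in the reference) and CCNE2, cyclin E2, overlapped INTS8 by 167 (1628). EXOSC9 with CCNA2 overlapped by 250 bases in both annotations. WHSC1, a histone H3 lysine methyltransferase, overlapped NELFA, a subunit of the negative elongation factor, by 2412 bases. The genes are 506 apart in the reference, and NELFA was listed 2918 bases beyond its reference end. KAT5, an acetyltransferase, overlapped RNASEH2C, a ribonuclease H2 subunit, by 558 bases, the whole KAT5 last exon and the reference length. SLC48A1 with HDAC7 overlapped by 29 bases (32 in the reference), and CARM1 with YIPF2 by 1 (886).

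Splicing factors included SRRM2, a large SR-related protein, whose 555-base last exon lay wholly in that of TCEB2, elongin B. TCEB2 was listed with a last exon of 8521 bases against 689. CLK3, a kinase of SR proteins, and EDC3, which promotes mRNA decapping, overlapped by 84 bases (446 in the reference) and shared 3 end bases. HNRNPH1 met RUFY1 over 15 bases where the reference gap is 4151, with HNRNPH1 extended by 4166. SRSF9 met GATC over 26 bases (1704 in the reference), with SRSF9 at its reference end. Among tRNA synthetases, YARS2 overlapped DNM1L by 1941 bases and RARS2 overlapped SLC35A1 by 534, while YARS met KIAA1522, and MARS met DDIT3, at 1 base. Among respiratory chain genes, ATP5J overlapped JAM2 by 2640 bases with a listed last exon of 9754 bases against 198. COX5B, CYC1 and NDUFA3, each on the plus strand, met ACTR1B, SHARPIN and TFPT at 1 base. ACTR1B was extended by 7771 bases, SHARPIN by 1112 and TFPT by 52, and COX5B, CYC1 and NDUFA3 each stood at a reference end. COX5B and NDUFA3 also have longer reference forms, of 388 and 758 bases.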

How the data were processed

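Poly(A)-selected RNA of 6 U-87 MG libraries was sequenced after a TruSeq preparation, per the labels' protocols. Per the submitters' processing notes, the tools were RSEM, DESeq 1.10.1, bedtools 2.20.1, Bowtie 1.0.1 and STAR 2.4.1d, and the builds hg19 and GRCh37. The step that each served was not given there. The deposited file analysed is 1 exon annotation of 382567 rows, whose only numbers are exon positions. Expression tables were not analysed here, so depth is unknown.

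A new isoform was begun at each change of parent name and wherever exons stopped advancing along the strand. Rows whose end preceded their start (76) were dropped, and the later of overlapping consecutive exons was kept. Positions were read as counted from 1 with both ends included: 93.1% of 122594 internal exons then had a reference length, against 10.3% with starts counted from 0. Last exons of opposite strands were paired at an overlap of at least 1 base; 75 contained pairs and 3 not tail to tail were left out.

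Names were matched to GENCODE v29 (GRCh38) by name (12408) or by a RefSeq synonym on the same chromosome and strand (559); 653 were unmatched and 101 matched only elsewhere or to several genes. Reference ends were compared by last exon length from the same acceptor, with a tolerance of 1 base. Motifs AATAAA and ATTAAA were searched in the last 30 bases of the transcript, on its own strand and, where stated, on the opposite one.

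The members and lists were chosen with earlier results of these data known, and the comparisons of shared ends, extensions and hexamers were added after seeing the file. Genes were named by rule: the 10 longest overlaps, the 5 pairs just inside and just outside, the 5 with most final exons, names in 2 pairs, up to 4 pairs per list, known pairs and the 3 longest last exons. Some named pairs and members of a list are not reported here. The pairs whose sequences are printed were chosen after their values were seen. No test was made, because genes are not replicates and no library has values. Alternatives were other minimum overlaps, only the isoforms of most introns in each gene (ties kept), genes with introns only, and contained pairs. Further ones were protein-coding names, the other overlapping exon, positions from 0, and other tolerances. The software was matplotlib 3.10.9, scipy 1.17.1, numpy 2.4.6 and Python 3.11.15. The pairing was tested on simulated data.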

Additional observations from a re-analysis of the deposited data

How the results depend on the processing

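No paired analysis was possible because the annotation has no columns of libraries, and for the same reason no library could be left out. The minimum overlap decided most values. At 2 bases or more (chosen after seeing the data) there were 383 pairs with a median overlap of 158 bases, 31.2% of members had 2 or more final exons, 60.7% of matched pairs overlapped in the reference, and 84.1% had a shared end base. At 50 bases or more these were 265 pairs, 425 bases, 35.4%, 69.8% and 84.5%. At 200 bases or more they were 172 pairs, 873 bases, 38.1%, 63.6% and 88.4%, and the median last exon of members was 2536 bases. Reading starts as counted from 0 (also chosen later) gave 383 pairs, 157 bases, 31.2%, 60.7% and 5.22%, so the shared end base rests on positions being counted from 1. The shared end share was 90.8% with contained pairs kept and 88.6% with the earlier of overlapping exons kept. With only the isoforms of most introns in each gene, without intronless genes, and with protein-coding names only, the values stayed within the limits set for each. At a tolerance of 0 bases the share of shared bases at a plus reference end and beyond the minus one was 53.1%, and at 5 bases 60.8%.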

Other observations

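The pairs were spread unevenly over chromosomes. On chromosome 16, 143 of 653 listed names were in pairs (21.9%), followed by chromosome 17 (17.9%) and chromosome 12 (17.3%). The lowest shares were on chromosome 18 (10 of 204, 4.90%), chromosome 21 (7.41%) and the X chromosome (7.56%). Members were also found near another gene at their other end: 291 of 1748 (16.6%, 15.0 to 18.5) started within 1000 bases of the start of a gene on the opposite strand, where the background was 11.7%.

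The strands were listed with unequal detail throughout the annotation. The plus strand had 6965 names, 13886 isoforms and 163476 exon rows, and the minus strand had 6756 names, 17773 isoforms and 219015 exon rows, after the 76 dropped rows.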
